A study of Mus musculus with 3 samples.

Results

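The FGF receptor and ERK feedback genes are 10 mouse genes chosen by name, out of 17997 genes listed in at least 1 library: the ligand gene Fgf4, the receptor genes Fgfr1, Fgfr2, Fgfr3 and Fgfr4, the feedback inhibitor genes Dusp6, Spry2 and Spry4, and the transcription factor genes Etv4 and Etv5. Each was matched by its Entrez gene number, and 10 of the 10 were listed in every library. RNA sequencing of total RNA was done on 46C embryonic stem cells, a mouse line of strain 129 with a fluorescent reporter at the Sox1 locus, grown on gelatin with serum and leukemia inhibitory factor. Lef1 P5 and Lef1 P2 are cultures given the gene for Lef1, a transcription factor through which beta-catenin acts on Wnt target genes, and collected at passages 5 and 2. Empty vector P2 received the vector alone and was collected at passage 2. The sources used here do not say whether the transfected cells were a pool or a clone. There is 1 library per group, so no test between conditions was possible and no p-value is given.

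Fibroblast growth factors bind receptor tyrosine kinases together with heparan sulfate and switch on the RAS, RAF, MEK and ERK kinase chain. Active ERK raises the transcripts of its own brakes, among them the ERK phosphatase Dusp6 and the Sprouty proteins, and of the ETS factors Etv4 and Etv5, so these genes are widely read as a gauge of the pathway. In mouse embryonic stem cells Fgf4 is the main ligand made by the cells themselves, and FGF/ERK signalling is known for moving them out of naive pluripotency and for specifying primitive endoderm in the early embryo, with Fgfr1 the main receptor of the epiblast and Fgfr2 enriched in primitive endoderm.

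The deposited values are expected counts, here called reads, and FPKM, the fragments per kilobase relative to the depth of the library. The reads summed to 9380813 in Lef1 P5, 9170554 in Lef1 P2 and 9225401 in empty vector P2. Intervals in parentheses are 95% counting intervals, which leave out the difference between cultures and between amplified copies of a molecule. Calls go by size alone: a ratio of 1 or more, up or down, on the log2(FPKM + 1) scale (2-fold), in a gene that reached 3 FPKM and 20 reads in the library where it was higher. Genes that met those minimum levels are said to be tested. Folds are plain FPKM ratios. Lef1 itself was at 214 FPKM in Lef1 P5, 135 FPKM in Lef1 P2 and 1.49 FPKM in empty vector P2, which follows the labels. Of 10 embryonic stem cell markers, 10 were at 1 FPKM or more in every library and 0 were called in any comparison. Of all genes tested, 8.31% were called in Lef1 P2 and 2.69% in Lef1 P5 against empty vector P2, and 8.74% between the Lef1 libraries. Beside these shares, nothing more is read from a count of 0 among 10 genes. The 19 primitive endoderm markers summed to 653 FPKM in Lef1 P5, 2198.5 FPKM in Lef1 P2 and 282 FPKM in empty vector P2. Against empty vector P2, 9 of 13 tested were called higher in Lef1 P5 and 16 of 17 in Lef1 P2. Of all genes tested, 1.4% and 6.49% were called higher in these comparisons. Afp and Ttr, which mark visceral endoderm, were at 0 in every library. In Lef1 P5, Lef1 P2 and empty vector P2, 10 fibroblast markers summed to 8.20, 12.9 and 18.5 FPKM, with Postn, Lum and Fap at 0 throughout. In the same order, 10 trophoblast markers summed to 29.4, 49.6 and 35.2 FPKM with Elf5 at 0. The 8 primed epiblast markers summed to 181, 98.8 and 115 FPKM with Cer1 at 0. Some markers of these lists were called. The fibroblast marker Thy1 was called lower in Lef1 P5 than in empty vector P2, where it was the only 1 of the 10 tested. Of 5 trophoblast markers tested, Krt7 and Esx1 were called higher in Lef1 P2 than in each other library. Among the primed epiblast markers, 4 of the 8 were tested in each Lef1 library against empty vector P2. Otx2 was called higher and Pou3f1 lower in both. Dnmt3b was called higher in Lef1 P5 than in Lef1 P2, where 3 of the 8 were tested.

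Among the 10 genes 2 calls were made. Etv4 was called lower in Lef1 P2 than in empty vector P2, and Fgfr4 was called lower in Lef1 P5 than in Lef1 P2. In Lef1 P2 against empty vector P2, 0 of the 10 were called higher and 1 lower, where 8.31% of the 10651 genes tested were called in either direction and 1.82% lower. In Lef1 P5 against empty vector P2, 0 of the 10 were called, where 2.69% of 10121 genes were; the introduced gene and the passage differ together here and cannot be told apart. In Lef1 P5 against Lef1 P2, 0 were called higher and 1 lower, where 8.74% of 10593 genes were called in either direction and 6.86% lower. Of the 10 genes, 8, 9 and 9 met the minimum levels in these comparisons; Fgfr3 met them in none. The median log2 ratio of those 8, 9 and 9 genes was -0.15 for Lef1 P2 and -0.20 for Lef1 P5 against empty vector P2, and 0.12 for Lef1 P5 against Lef1 P2, beside medians of 0.09, -0.02 and -0.14 for all genes tested. Over all 10 genes the medians were 0.07, -0.05 and 0.10. In a group of 10 genes, 1 call is the smallest count above 0, so no more is read from these counts.

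**Figure D1:**
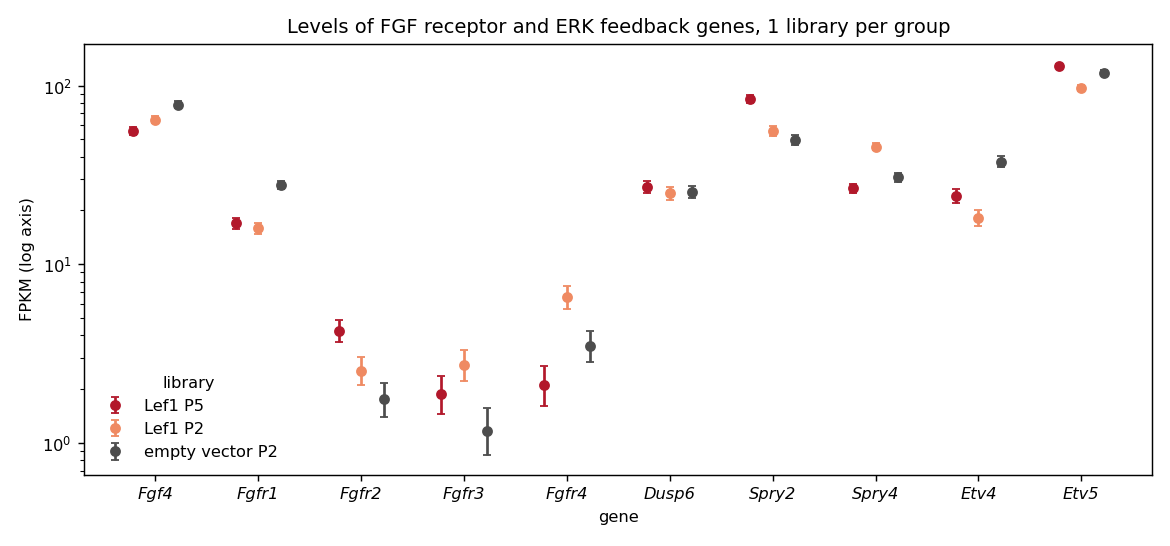
FPKM (log axis) of the 10 genes in Lef1 P5, Lef1 P2 and empty vector P2, 1 library each, with bars for the 95% counting interval. Etv5 is the highest gene in every library, Dusp6 lies between 24.9 and 27.1 FPKM in all 3, and Fgfr2, Fgfr3 and Fgfr4 stay under 7 FPKM.

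The ligand gene Fgf4 was at 55.6 FPKM (52.8 to 58.4) in Lef1 P5, 64.5 FPKM (61.5 to 67.6) in Lef1 P2, against 78.2 FPKM (74.9 to 81.6) in empty vector P2. Its level was below that of empty vector P2 in both Lef1 libraries, with counting intervals that did not overlap. The fold was 0.71 (0.67 to 0.76) in Lef1 P5 and 0.82 (0.77 to 0.88) in Lef1 P2, and neither was called. Across all genes tested, 8.63% had a lower ratio than Fgf4 in Lef1 P5 and 21.9% in Lef1 P2 against empty vector P2. Fgf4 was more strongly expressed than 91.2% of the genes listed in Lef1 P5, 93.1% in Lef1 P2 and 93.8% in empty vector P2.

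Among the receptor genes Fgfr1 had the highest level per length in every library. It was at 16.96 FPKM (15.8 to 18.2) in Lef1 P5, 15.9 FPKM (14.8 to 17.1) in Lef1 P2, against 27.8 FPKM (26.2 to 29.3) in empty vector P2. The Lef1 libraries overlapped each other and both lay under empty vector P2, at 0.61-fold (0.56 to 0.67) in Lef1 P5 and 0.57-fold (0.52 to 0.63) in Lef1 P2. These log2 ratios of -0.68 and -0.77 were short of a call, and 3.98% and 4.14% of all genes tested had a lower ratio. A long noncoding RNA gene, Gm16159, shares the Fgfr1 span and was at 0.24, 0.25 and 0.99 FPKM in the same order. The sources used here do not say whether counting used strand, so reads of these overlapping genes may not be separable.

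Fgfr2 ran the other way, with its lowest level in empty vector P2. It was at 4.24 FPKM (3.67 to 4.87; 200 reads) in Lef1 P5, 2.53 FPKM (2.10 to 3.03; 119 reads) in Lef1 P2, against 1.75 FPKM (1.39 to 2.17; 82 reads) in empty vector P2. Lef1 P5 was above both other libraries, whose intervals overlapped. The fold of 2.42 (1.86 to 3.17) in Lef1 P5 against empty vector P2 gave a log2 ratio of 0.93 with the pseudocount of 1 FPKM and was not called. It was called with a pseudocount of 0.1 FPKM and in CPM (reads scaled to the library total, without length), and 98.4% of all genes tested had a lower ratio. In Lef1 P2 against empty vector P2 the gene lay under 3 FPKM in both libraries, at 1.45-fold (1.08 to 1.94). The deposited length of Fgfr2, which has 2 transcripts in the tables, was 5067, 5178 and 5137 bases in Lef1 P5, Lef1 P2 and empty vector P2.

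Fgfr3 was the weakest receptor gene in Lef1 P5 and in empty vector P2, though its interval overlapped that of a neighbouring receptor gene in each library. Its level was 1.87 FPKM (1.46 to 2.36; 71 reads) in Lef1 P5, 2.73 FPKM (2.22 to 3.32; 100 reads) in Lef1 P2, against 1.17 FPKM (0.853 to 1.57; 45 reads) in empty vector P2. The Lef1 P2 interval did not overlap that of empty vector P2, at 2.33-fold (1.63 to 3.40), whereas the Lef1 P5 interval overlapped both others. The deposited length of Fgfr3, with 5 transcripts listed, was 4102, 4046 and 4219 bases in Lef1 P5, Lef1 P2 and empty vector P2. Fgfr3 stayed below the minimum level of 3 FPKM in every library. Its log2 ratio in Lef1 P2 against empty vector P2 was 0.78, short of the threshold of 1 with a minimum of 1 FPKM or none too, and it was called higher there in CPM, at 1.02.

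Fgfr4 had the largest ratio between the Lef1 libraries among the 10 genes. It was at 2.10 FPKM (1.61 to 2.70; 61 reads) in Lef1 P5, 6.53 FPKM (5.62 to 7.54; 185 reads) in Lef1 P2, against 3.50 FPKM (2.85 to 4.26; 100 reads) in empty vector P2. No pair of these intervals overlapped, with Lef1 P2 highest and Lef1 P5 lowest. Lef1 P5 was 0.32-fold (0.24 to 0.43) the level of Lef1 P2, a log2 ratio of -1.28 and a call. Across all genes tested 3.14% had a lower ratio in this comparison, and the median of all genes was itself -0.14. The call was lost with a pseudocount of 5 FPKM, a minimum of 10 FPKM and quantile scaling. Against empty vector P2, Fgfr4 was at 0.60-fold (0.43 to 0.83) in Lef1 P5 and 1.87-fold (1.46 to 2.40) in Lef1 P2, neither called.

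The summed level of the 4 receptor genes was 25.2 FPKM in Lef1 P5, 27.7 FPKM in Lef1 P2 and 34.2 FPKM in empty vector P2, and its make-up differed. Fgfr1 gave 67.4% of the receptor FPKM in Lef1 P5, 57.4% in Lef1 P2 and 81.2% in empty vector P2. As shares of receptor reads, with exact binomial intervals, this was 70.5% (67.7 to 73.1), 64.2% (61.4 to 67.0) and 84.9% (83.0 to 86.7). Fgfr2 was the second receptor gene in Lef1 P5, with 16.8% of the FPKM, whereas Fgfr4 was second in Lef1 P2, with 23.6%, and in empty vector P2, with 10.2%. The ratio of Fgfr1 to Fgfr2 FPKM was 4.0 (3.42 to 4.69) in Lef1 P5, 6.29 (5.17 to 7.70) in Lef1 P2 and 15.9 (12.7 to 20.1) in empty vector P2. The endoderm marker sums described above differed between these libraries too and were highest in Lef1 P2. Fgfr3 and Fgfr4 were also highest there, whereas Fgfr2 was highest in Lef1 P5 and Fgfr1 in empty vector P2. The part of the endoderm markers in the receptor values was not tested. In such bulk samples fewer cells of a type and less RNA per cell cannot be told apart.

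**Figure D2:**
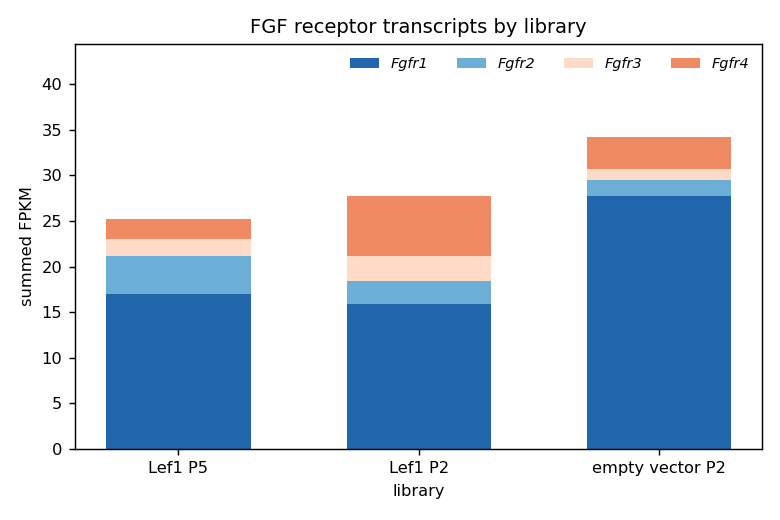
Stacked FPKM of Fgfr1, Fgfr2, Fgfr3 and Fgfr4 in Lef1 P5, Lef1 P2 and empty vector P2, 1 library each. The Fgfr1 part is 16.96 and 15.9 FPKM in the Lef1 libraries and 27.8 FPKM in empty vector P2, while the Fgfr2 part is largest in Lef1 P5 and the Fgfr4 part in Lef1 P2.

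The feedback genes did not move as a block. Dusp6, the phosphatase that removes the activating phosphates from ERK, was at 27.1 FPKM (25.1 to 29.2) in Lef1 P5, 24.9 FPKM (22.98 to 26.9) in Lef1 P2, against 25.3 FPKM (23.4 to 27.4) in empty vector P2. The 3 intervals overlapped. The fold was 1.07 (0.96 to 1.19) in Lef1 P5 and 0.98 (0.88 to 1.10) in Lef1 P2 against empty vector P2. The highest interval bound among the 3 comparisons, 1.21, was that of Lef1 P5 against Lef1 P2.

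Spry2, a Sprouty inhibitor of receptor tyrosine kinase signalling to ERK, was at 84.4 FPKM (80.3 to 88.6) in Lef1 P5, 55.6 FPKM (52.3 to 59.1) in Lef1 P2, against 49.8 FPKM (46.6 to 53.0) in empty vector P2. Lef1 P5 stood above both passage 2 libraries, whose intervals overlapped at their edges. The fold against empty vector P2 was 1.70 (1.56 to 1.84) in Lef1 P5 and 1.12 (1.02 to 1.22) in Lef1 P2, and neither was called. In Lef1 P5, 97.5% of all genes tested had a lower ratio than Spry2.

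Spry4, a second Sprouty inhibitor, was at 26.6 FPKM (25.0 to 28.2) in Lef1 P5, 45.6 FPKM (43.6 to 47.7) in Lef1 P2, against 30.6 FPKM (28.9 to 32.3) in empty vector P2. Here Lef1 P2 was the highest library and Lef1 P5 the lowest, the same order as for Fgfr4. The fold against empty vector P2 was 0.87 (0.80 to 0.94) in Lef1 P5 and 1.49 (1.39 to 1.60) in Lef1 P2, and Lef1 P5 was at 0.58-fold (0.54 to 0.63) the level of Lef1 P2, with no call. The ratio of Spry2 to Spry4 FPKM was therefore 3.18 (2.94 to 3.43) in Lef1 P5, 1.22 (1.13 to 1.32) in Lef1 P2 and 1.63 (1.49 to 1.77) in empty vector P2.

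Of the ETS factor genes induced downstream of ERK, Etv4 was lower in Lef1 P2 and Etv5 was not called. Etv4 was at 24.1 FPKM (22.1 to 26.3) in Lef1 P5, 18.2 FPKM (16.4 to 20.1) in Lef1 P2, against 37.5 FPKM (34.97 to 40.3) in empty vector P2. No pair of intervals overlapped, and both Lef1 libraries were below empty vector P2. Lef1 P2 was at 0.48-fold (0.43 to 0.55) with a log2 ratio of -1.01, just past the threshold, and 1.76% of all genes tested had a lower ratio. The call was lost with a pseudocount of 5 FPKM. Lef1 P5 was at 0.64-fold (0.57 to 0.72) and not called.

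Etv5 was the most strongly expressed of the 10 genes in every library, at 129 FPKM (125 to 133) in Lef1 P5, 96.8 FPKM (93.6 to 100.2) in Lef1 P2, against 118 FPKM (114 to 121) in empty vector P2. The libraries were ordered with Lef1 P5 highest and Lef1 P2 lowest. The fold against empty vector P2 was 1.10 (1.05 to 1.14) in Lef1 P5 and 0.82 (0.79 to 0.86) in Lef1 P2, neither called. The ratio of Etv5 to Etv4 FPKM was 5.35 (4.88 to 5.87) in Lef1 P5, 5.33 (4.79 to 5.95) in Lef1 P2 and 3.14 (2.91 to 3.39) in empty vector P2, so that the Lef1 libraries matched each other within counting error and both exceeded empty vector P2.

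**Figure D3:**
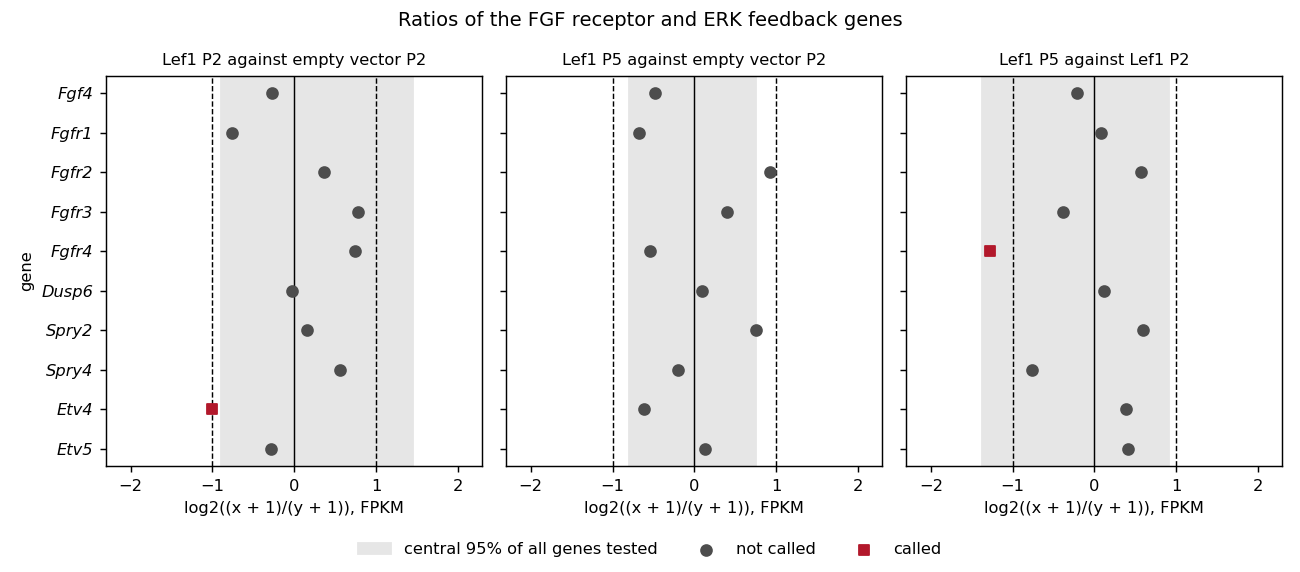
Log2 ratios (pseudocount 1 FPKM) of the 10 genes in the 3 comparisons, with dashed lines at -1 and 1 and a grey band for the central 95% of all genes tested. The called genes, Etv4 at -1.01 in Lef1 P2 against empty vector P2 and Fgfr4 at -1.28 in Lef1 P5 against Lef1 P2, are red squares.

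By level, Etv5 was first among the 10 genes in every library, and the order below it differed. In Lef1 P5 it ran Etv5, Spry2, Fgf4, Dusp6, Spry4, Etv4, Fgfr1, Fgfr2, Fgfr4 and Fgfr3, where Dusp6 and Spry4, Spry4 and Etv4, and Fgfr4 and Fgfr3 had overlapping intervals. In Lef1 P2 it ran Etv5, Fgf4, Spry2, Spry4, Dusp6, Etv4, Fgfr1, Fgfr4, Fgfr3 and Fgfr2, with overlaps between Etv4 and Fgfr1 and between Fgfr3 and Fgfr2. In empty vector P2 it ran Etv5, Fgf4, Spry2, Etv4, Spry4, Fgfr1, Dusp6, Fgfr4, Fgfr2 and Fgfr3, with overlaps between Spry4 and Fgfr1, Fgfr1 and Dusp6, and Fgfr2 and Fgfr3. The nearest patterns to the called genes, by Euclidean distance in the log2 ratios of both Lef1 libraries over empty vector P2 among 10713 genes, were Zfp688 (0.01), Neil3 (0.02) and Tmem205 (0.02) for Fgfr4, and Ramp3 (0.05), Elmo1 (0.06) and Stk26 (0.08) for Etv4. Such a distance rests on 3 libraries.

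Upstream sequence was taken for these genes because the introduced factor binds DNA. The RefSeq promoter table (build GRCm38.p6) holds 7 of the 10 genes in 9 windows; Fgfr1, Spry4 and Etv4 are named only. The 250 bases before each start were searched on both strands for the TCF/LEF letters, which are CTTTG followed by a pair of A or T bases, and for the ETS letters CCGGAA, which do not overlap each other. Of the 7 genes, Spry2 held a TCF/LEF match, 137 bases upstream, and Fgfr4 an ETS match, 178 bases upstream. Among 32851 promoter windows 14.8% held the TCF/LEF letters and 12.0% the ETS letters. A match is a description and not a binding site. Both windows are shown 5′ to 3′ with the match in capitals, Fgfr4 as a called gene and Spry2 as the gene with the TCF/LEF letters, at chr13:55152568-55152817 (plus strand) and chr14:105896820-105897069 (minus strand).
Fgfr4: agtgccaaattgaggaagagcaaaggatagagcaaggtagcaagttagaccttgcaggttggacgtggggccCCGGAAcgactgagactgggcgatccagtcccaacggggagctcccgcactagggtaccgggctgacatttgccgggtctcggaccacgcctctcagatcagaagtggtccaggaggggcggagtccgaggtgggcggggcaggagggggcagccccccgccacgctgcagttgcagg
Spry2: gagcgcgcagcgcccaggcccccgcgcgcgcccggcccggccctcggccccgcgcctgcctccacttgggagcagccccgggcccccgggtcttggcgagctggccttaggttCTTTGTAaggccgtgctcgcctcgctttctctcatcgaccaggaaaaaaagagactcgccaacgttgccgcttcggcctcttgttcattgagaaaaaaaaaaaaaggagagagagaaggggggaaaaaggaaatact

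The wider FGF/ERK pathway was read from 5 lists with 104 further genes, chosen with earlier results of these data known. In Lef1 P2 against empty vector P2, 9 were called higher and 4 lower, of 74 that met the minimum levels, where 6.49% of all genes tested were called higher and 1.82% lower. In Lef1 P5 against empty vector P2, 4 were called higher and 1 lower of 71, where 1.40% and 1.28% of all genes were. In Lef1 P5 against Lef1 P2, 6 were called higher and 7 lower of 74, where 1.88% and 6.86% of all genes were. The median log2 ratio of the list genes that met the minimum levels was 0.07, -0.06 and -0.18 in these comparisons, beside 0.09, -0.02 and -0.14 for all genes tested.

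Other ligand genes were expressed far below Fgf4. Of 21, 3 were at 0 in every library (Fgf6, Fgf16 and Fgf20), 7 reached 1 FPKM in any library, and the sum of all 21 was 22.4 FPKM in Lef1 P5, 21.3 FPKM in Lef1 P2 and 20.7 FPKM in empty vector P2. Fgf3, a ligand known from inner ear and tail development, was at 3.32, 6.65 and 1.32 FPKM in the same order, and was called higher in Lef1 P2, at 5.04-fold (2.81 to 9.69). Fgf10, the ligand of the epithelial form of Fgfr2, was at 2.43, 3.38 and 0.58 FPKM. It was called higher in Lef1 P2, at 5.83-fold (3.76 to 9.40). In Lef1 P5 against empty vector P2 it was at 4.19-fold (2.66 to 6.82), under the minimum level of 3 FPKM in both libraries. Its Lef1 P5 count was not whole. Fgf17, of the Fgf8 subfamily, was at 7.89, 2.01 and 9.04 FPKM. It was called lower in Lef1 P2 than in empty vector P2, at 0.22-fold (0.14 to 0.33), and higher in Lef1 P5 than in Lef1 P2, at 3.93-fold (2.61 to 6.07). The remaining ligands were not called, and most could not be. Of the 21, 4 met the minimum levels in Lef1 P2 and 3 in Lef1 P5 against empty vector P2, and 4 in Lef1 P5 against Lef1 P2. In the same order, 8.31%, 2.69% and 8.74% of all genes tested were called in either direction.

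Co-receptors and heparan sulfate genes held the largest called fold of the lists. Klb, the beta-Klotho co-receptor through which endocrine FGFs act on Fgfr1 and Fgfr4, was at 3.08 FPKM (2.5 to 3.75) in Lef1 P5, 8.80 FPKM (7.79 to 9.91) in Lef1 P2, against 0.51 FPKM (0.29 to 0.83; 16 reads) in empty vector P2. It was called higher in Lef1 P5, at 6.04-fold (3.54 to 10.98), and in Lef1 P2, at 17.3-fold (10.4 to 30.6), and lower in Lef1 P5 than in Lef1 P2. Klb and Fgfr4 were both highest in Lef1 P2. In Lef1 P5, Klb lay above empty vector P2, whereas Fgfr4 lay below it. Fgfr4 was not called against empty vector P2 in either Lef1 library. The related co-receptor gene Kl was at 0 in every library. Hspg2, the basement membrane proteoglycan perlecan, was at 77.1, 163 and 73.4 FPKM in Lef1 P5, Lef1 P2 and empty vector P2 and was called higher in Lef1 P2. Sulf1, an enzyme that trims heparan sulfate, was at 8.52, 2.60 and 8.94 FPKM and was called lower in Lef1 P2. Fgfbp1, a carrier that frees FGFs from the matrix, was at 12.2, 3.84 and 3.14 FPKM and was called higher in Lef1 P5 against each passage 2 library.

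None of the 26 adaptor and ERK cascade genes was called in any comparison. Of them, 25, 24 and 25 met the minimum levels in Lef1 P2 and in Lef1 P5 against empty vector P2 and in Lef1 P5 against Lef1 P2. In the same order, 8.31%, 2.69% and 8.74% of all genes tested were called, and nothing more is read from the count. Map2k1, which encodes the kinase MEK1 that activates ERK, was at 61.2 FPKM in Lef1 P5, 74.4 FPKM in Lef1 P2 and 62.4 FPKM in empty vector P2. Plcg1, the phospholipase recruited to activated receptors, was at 0.52-fold (0.48 to 0.57) in Lef1 P5 against empty vector P2, with 19.1 and 36.4 FPKM, a log2 ratio of -0.90.

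Among 16 other feedback genes, which were not all inhibitors, Dusp4 and Flrt3 were called higher in both Lef1 libraries against empty vector P2. Of the 16, 13 met the minimum levels in each of these comparisons. Over all genes tested, 6.49% were called higher in Lef1 P2 and 1.4% in Lef1 P5. Dusp4, a nuclear phosphatase of ERK and other MAP kinases, was at 24.8 FPKM (22.7 to 26.9) in Lef1 P5, 47.7 FPKM (44.8 to 50.7) in Lef1 P2, against 10.2 FPKM (8.94 to 11.7) in empty vector P2, which is 2.42-fold (2.07 to 2.84) and 4.66-fold (4.03 to 5.40). The ratio of Dusp4 to Dusp6 FPKM was 0.91 (0.82 to 1.02) in Lef1 P5, 1.92 (1.73 to 2.12) in Lef1 P2 and 0.40 (0.35 to 0.47) in empty vector P2. Flrt3, a membrane protein that binds FGF receptors, was at 4.89, 13.7 and 1.41 FPKM, or 3.47-fold (2.53 to 4.83) in Lef1 P5 and 9.70-fold (7.26 to 13.2) in Lef1 P2. Dusp9, a cytoplasmic ERK phosphatase, was at 21.8 FPKM (20.02 to 23.7) in Lef1 P5, 23.4 FPKM (21.5 to 25.4) in Lef1 P2, against 46.5 FPKM (43.9 to 49.3) in empty vector P2. It was called lower in Lef1 P5, at 0.47-fold (0.42 to 0.52), where 1.28% of all genes tested were called lower. In Lef1 P2 it was not called, although the intervals of the Lef1 libraries overlapped and both lay under empty vector P2. The comparisons with empty vector P2 share that library. The primitive endoderm sums given above were higher in the same libraries as Dusp4, Flrt3 and Klb, and their part in these values was not tested.

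Of 25 other ERK-responsive genes, 19 met the minimum levels in Lef1 P2 and 18 in Lef1 P5 against empty vector P2. In Lef1 P2, 3 were called higher and 2 lower, where 6.49% and 1.82% of all genes tested were. In Lef1 P5, 0 were called, where 2.69% of all genes tested were. The immediate-early genes Egr1, Fos and Jun, all transcription factor genes, were higher in Lef1 P2. Egr1 was at 3.84 FPKM (3.15 to 4.63) in Lef1 P5, 17.2 FPKM (15.7 to 18.8) in Lef1 P2, against 4.60 FPKM (3.84 to 5.47) in empty vector P2. Fos was at 2.02, 5.43 and 1.59 FPKM and Jun at 3.84, 9.93 and 3.18 FPKM in the same order. Myc and the cyclin gene Ccnd1 were lower in Lef1 P2: Myc was at 14.4, 4.10 and 15.4 FPKM and Ccnd1 at 15.3, 3.79 and 14.7 FPKM. For these 5 genes Lef1 P2 stood apart from the other libraries. The primitive endoderm marker sum was also highest in Lef1 P2 (2198.5 FPKM, against 653 FPKM in Lef1 P5 and 282 FPKM in empty vector P2), and its part in these values was not tested. Between the Lef1 libraries, Maff, a small leucine zipper factor gene, was lower in Lef1 P5 (6.10 FPKM, against 13.7 FPKM in Lef1 P2), and Etv1, the third ETS factor of the Etv4 and Etv5 subfamily, was higher (13.4 FPKM, against 5.81 FPKM in Lef1 P2, or 2.31-fold, 1.97 to 2.72).

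**Figure D4:**
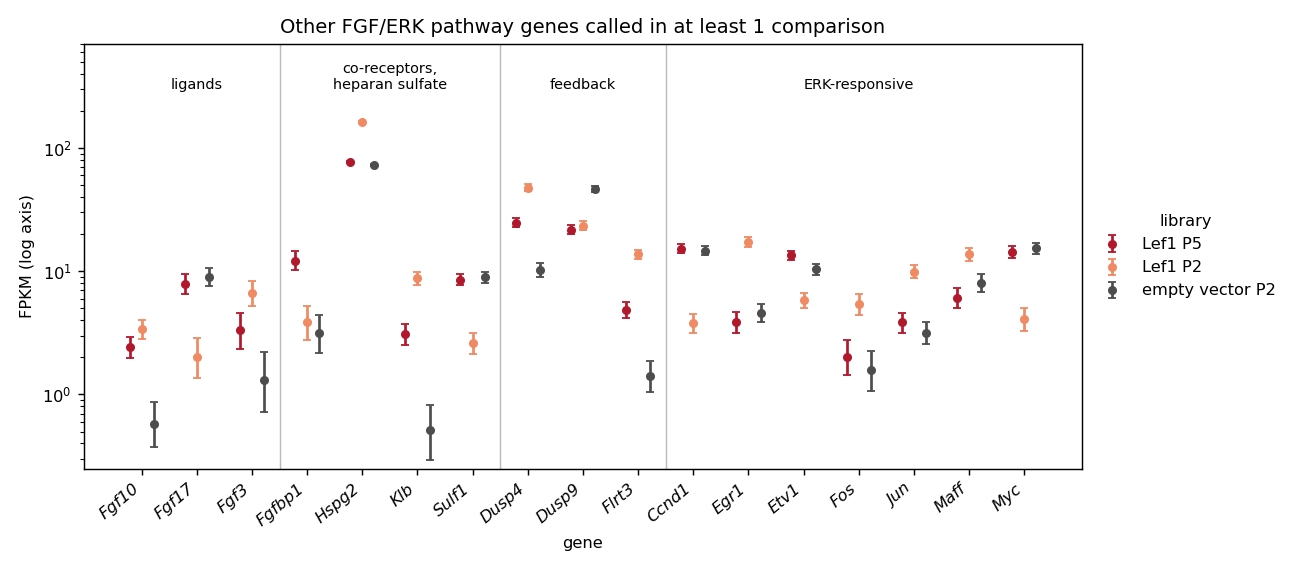
FPKM (log axis) of the 17 other FGF/ERK pathway genes called in at least 1 comparison, in Lef1 P5, Lef1 P2 and empty vector P2, 1 library each, with bars for the 95% counting interval. Dusp4, Flrt3, Klb and Egr1 are highest in Lef1 P2, Myc, Ccnd1, Sulf1 and Fgf17 are lowest there, and Dusp9 is lower in both Lef1 libraries (21.8 and 23.4 FPKM) than in empty vector P2 (46.5 FPKM).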

How the data were processed

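The authors deposited, for each of 3 libraries, a gene table with an expected count, an FPKM value and a transcript length per Entrez gene, per the file headers. Bowtie 0.12.2 and build mm8 were used, per the submitters' processing notes; the counting program, the handling of reads that match several genes and the use of strand are not stated in what was available here. Counts were whole for all 10 genes in every library, but not in 8.49%, 8.56% and 8.61% of genes listed in Lef1 P5, Lef1 P2 and empty vector P2. The deposited tables list values down to 0.01 FPKM, and a missing gene was taken as 0. Amounts of 3 reads on 1 kb correspond to 0.320, 0.327 and 0.325 FPKM.

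Symbols came from a RefSeq table of GRCm38 (17951 of 17997 numbers matched), used only for names, overlaps and promoters. The deposited FPKM were compared as log2((x + 1)/(y + 1)). Exact Poisson intervals of a level and conditional binomial intervals of a fold used the expected counts. TMM factors came from edgeR 4.0.16, the rest from Python 3.11.15 with scipy 1.17.1. The 10 genes and the lists were chosen with earlier results of these data known. Named beyond the 10 were list genes that were called or reached 100 FPKM in any library; Map2k1, Plcg1, Spry1, Spred1 and Spred2 were chosen after their values were seen. The 11 alternatives covered pseudocounts, minimum levels, scaling, CPM, a 1.5-fold threshold and non-overlapping intervals.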

Additional observations from a re-analysis of the deposited data

Results flagged for a closer look

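Of the 10 genes, 3 lay on opposite sides of empty vector P2 in the Lef1 libraries, with counting intervals of the fold that excluded 1 on either side. Among the 12918 genes listed in all libraries with 20 reads in at least 1 of them, which include the 10, 11.1% did so, and nothing is read from the count. With 1 library per group, this difference between passages was not tested, and both folds use the same empty vector P2 library. Fgfr4 was at 0.60-fold in Lef1 P5 and 1.87-fold in Lef1 P2. Spry4 was at 0.87-fold in Lef1 P5 and 1.49-fold in Lef1 P2. Etv5 was at 1.10-fold in Lef1 P5 and 0.82-fold in Lef1 P2.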

How the results depend on the processing

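Of the 11 alternatives, 4 could change the sign of a log2 ratio (median-of-ratios, TMM and quantile scaling, and CPM), and under these the 30 ratios of the 10 genes kept theirs, though some came near 0. In Lef1 P2 against empty vector P2, Spry2 (0.16) came down to 0.0031 and Fgfr2 (0.36) to 0.03; in Lef1 P5 against Lef1 P2, Fgf4 (-0.21) came to -0.02 and Fgfr3 (-0.38) to -0.03. Calls among the 10 genes did not all hold. In Lef1 P2 against empty vector P2, where 1 was called, 0 were with a pseudocount of 5 FPKM, 2 with CPM (Etv4 lower, Fgfr3 higher) and 3 with a 1.5-fold threshold. In Lef1 P5 against empty vector P2, where 0 were called, 1 was with a pseudocount of 0.1 FPKM and with CPM (Fgfr2 in each), and 4 with the 1.5-fold threshold (Fgfr2 and Spry2 higher, Fgfr1 and Etv4 lower). In Lef1 P5 against Lef1 P2, where 1 was called, 0 were with a pseudocount of 5 FPKM, a minimum of 10 FPKM or quantile scaling, and 3 with the 1.5-fold threshold. Other pathway genes called in Lef1 P2 against empty vector P2 numbered 13, against 8 with a pseudocount of 5, 6 with a minimum of 10 FPKM and 25 at 1.5-fold; in Lef1 P5 against empty vector P2 they numbered 5, against 1, 3 and 9 in the same settings and 8 with CPM; in Lef1 P5 against Lef1 P2 they numbered 13, against 4, 8 and 24. All genes called numbered 885, 272 and 926 in the 3 comparisons, against 328, 67 and 281 with a pseudocount of 5, 478, 116 and 503 with a minimum of 10 FPKM, 1506, 545 and 1547 with CPM and 2719, 1038 and 2961 at 1.5-fold, and 414 in Lef1 P5 against empty vector P2 with a pseudocount of 0.1. The causes were not tested.

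Median-of-ratios, TMM and quantile scaling shifted the median of all genes by -0.15, -0.15 and -0.12 in Lef1 P2 against empty vector P2 and by 0.19, 0.17 and 0.16 in Lef1 P5 against Lef1 P2. The higher share of all calls was 78.1% as deposited and 62.5%, 62.5% and 59.5% under these scalings in the first of these comparisons, and 21.5%, against 45.0%, 43.4% and 40.8%, in the second. Relative to the median of all genes, Etv4 was at -1.10 in Lef1 P2 against empty vector P2 and Fgfr4 at -1.14 in Lef1 P5 against Lef1 P2. No paired analysis was possible because each group has 1 library. Depth limits Fgfr2, Fgfr3 and Fgfr4 most, with 45 to 200 reads per library.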

Other observations

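Spry1, Spred1 and Spred2 were not called in any comparison. Spry1, another Sprouty inhibitor gene, was at 9.20 FPKM in Lef1 P5, 9.55 FPKM in Lef1 P2 and 11.5 FPKM in empty vector P2, with fold intervals of 0.66 to 0.97 in Lef1 P5 and 0.69 to 1.00 in Lef1 P2. Spred1 and Spred2, Sprouty-related inhibitors that act on RAS and RAF, were at 19.4, 14.7 and 15.8 FPKM and at 19.7, 18.3 and 24.0 FPKM in the same order.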
